A study of Mus musculus with 96 samples.

Results

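Hematopoietic cells (HCs) of the infarcted mouse heart were compared between day 28 (D28) and day 0 (D0). The libraries were chosen by cell type and day from their labels, and a library with fewer than 100000 counts on mature miRNAs was left out. This removed D0 replicate 3, which held 18286 counts, and left 3 libraries at D0 and 4 at D28. These 7 libraries belong to a set of 96 that spans 6 days and also covers fibroblasts (FBs), endothelial cells (ECs) and cardiomyocytes (CMs). All mice were C57Bl/6J males, and infarction was performed at 12 to 14 weeks of age. Their age at harvest is not given in the paper. At D28 the hearts had been infarcted by permanent ligation of the left anterior descending coronary artery, whereas the D0 mice were not operated on. The study used no sham surgery, so surgery, infarction and elapsed time cannot be told apart. HCs were pulled from the digested heart with magnetic beads against CD45, a surface protein carried by leukocytes of every lineage. Each library held RNA of up to 3 mice, made from 150 ng of total RNA with 15 PCR cycles. The p-values therefore measure the spread between pools of mice rather than between single animals.

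MicroRNAs are short RNAs cut from a hairpin precursor. Either arm of the hairpin, named 5p or 3p, can be loaded into an Argonaute protein, where the bases that follow the first one, the seed, pair with target mRNAs and lower their translation and stability. Cardiac leukocytes include resident macrophages, monocytes, neutrophils and lymphocytes, and each of these lineages is known for a few miRNAs, such as miR-142 across leukocytes, miR-223 in myeloid cells and miR-150 in mature lymphocytes. Other cardiac cells are known for other miRNAs, among them miR-1, miR-133, miR-208 and miR-499 in striated muscle, miR-126 in endothelium, miR-143 and miR-145 in smooth muscle and pericytes, and miR-199 and miR-214 in fibroblasts and other mesenchymal cells.

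The mature sequences below are those of the miRNAs on which the comparison turns and for which the RefSeq annotation of GRCm38.p6 held an entry, with the seed (bases 2 to 8) in capitals. The first group was higher at D28.
miR-199a-5p: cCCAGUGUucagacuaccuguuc
miR-199a-3p: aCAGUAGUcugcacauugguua
miR-34b-5p: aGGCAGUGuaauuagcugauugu
miR-21a-5p: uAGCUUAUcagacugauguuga
miR-221-3p: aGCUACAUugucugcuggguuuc
miR-222-3p: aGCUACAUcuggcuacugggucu
miR-127-3p: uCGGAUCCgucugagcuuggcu
miR-223-3p: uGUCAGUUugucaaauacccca
The second group was lower at D28.
miR-126a-3p: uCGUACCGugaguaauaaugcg
miR-126b-5p: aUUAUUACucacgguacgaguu
miR-499-5p: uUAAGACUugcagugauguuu
miR-149-5p: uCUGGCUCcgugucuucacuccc
miR-30a-5p: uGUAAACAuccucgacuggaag
miR-30e-5p: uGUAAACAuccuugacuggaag
miR-30c-5p: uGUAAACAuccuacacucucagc
miR-221-3p and miR-222-3p share 1 seed and differ at 12 positions outside it. miR-30a-5p and miR-30e-5p differ by C13U alone, counted from the 5′ end of miR-30a-5p. The sequence of miR-34a-5p is shown for comparison with miR-34b-5p, whose seed it has.
miR-34a-5p: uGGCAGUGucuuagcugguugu

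The D0 libraries held 26449253 to 29504666 counts on mature miRNAs and the D28 libraries 13475728 to 20324019. Of 1978 mature miRNAs in the tables, 1269 had a count in at least 1 of these libraries, and 635 passed the filter on low counts. Levels are given as normalised CPM, counts divided by the TMM-scaled library size and set to a common total, in the order of the replicates (1, 2 and 4 at D0, then 1 to 4 at D28). On the leading log2 fold change scale of edgeR, libraries of different days lay 0.915 to 1.1 apart, against 0.567 to 0.678 within D0 and 0.59 to 0.744 within D28.

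At D28, 130 of 635 miRNAs (20.5%) differed from D0 at a Benjamini-Hochberg adjusted p under 0.05 in the quasi-likelihood test of edgeR. Of these, 60 (9.45%) rose and 70 (11%) fell. In normalised CPM all D28 libraries lay above all D0 libraries for 56 of the 60 and below them for 68 of the 70, against 19.4% and 16.7% of all miRNAs tested. A mean level of 100 CPM or more was found for 33 of the falls and 11 of the rises. The split between rises and falls depended on the scaling. With library size alone in place of TMM the median log2 fold change of all miRNAs shifted upward by 0.35, from 0.05 to 0.39, and 186 miRNAs (29.3%) passed as higher and 54 (8.5%) as lower. All 60 rises passed there, and so did 54 of the 70 falls.

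**Figure D1:**
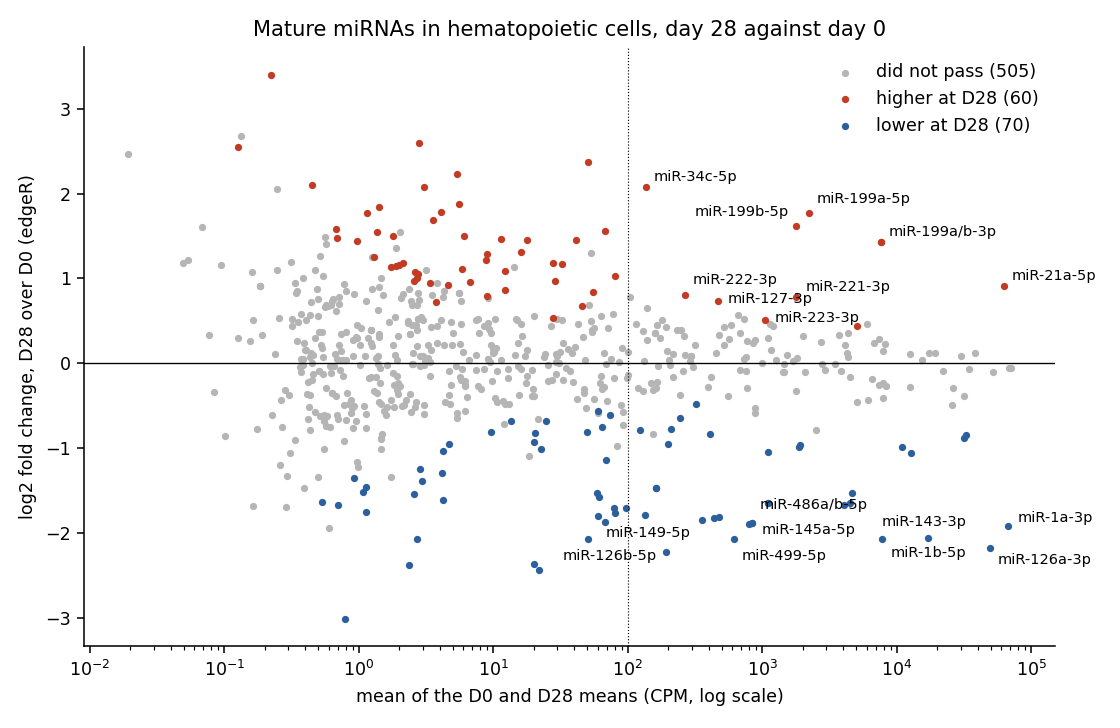
Each point is 1 of the 635 mature miRNAs tested in HCs, placed by the mean of the D0 and D28 group means in CPM (log axis) and by the log2 fold change of D28 over D0. Red points (60) rose, blue points (70) fell and grey points did not pass. To the right of the dotted line at 100 CPM lie 33 falls and 11 rises.

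miRNAs known from cardiomyocytes were lower in HCs at D28. Of 9 miRNAs on this list, 8 were tested, 7 fell and none rose, against 11% and 9.45% of all miRNAs tested. The median log2 fold change was -1.82, against 0.05 over all miRNAs tested. miR-1a-3p, the most abundant miRNA of heart muscle, was at 146335, 133654 and 112534 normalised CPM at D0 and at 45839, 35739, 27589 and 29700 at D28. The D28 libraries all lay below the D0 libraries, and miR-1a-3p fell by 1.91 on the log2 scale (SE 0.21, adjusted p = 1.27e-07 in edgeR's quasi-likelihood test). Its mean level at D0 was the highest of all miRNAs, but in D0 replicate 4 it was below miR-126a-3p, which was at 120227 there. miR-499-5p, which lies in an intron of the myosin gene Myh7b (chr2:155622880-155622958, + strand, GRCm38), was at 1389, 1435 and 849 at D0 and at 356, 352, 191 and 268 at D28. The change was -2.07 (SE 0.26, adjusted p = 9.34e-07 in edgeR's test), with no overlap. miR-208a-3p, made from an intron of the alpha myosin gene Myh6, went from 110, 159 and 127 to 42.3, 39.4, 28.6 and 34.7, a log2 fold change of -1.87 (edgeR's adjusted p = 2.1e-05). The muscle miRNAs miR-133a-3p and miR-133b-3p, of which the first had 107% to 109% of the counts of the second in every library, so that they cannot be treated as separate measurements, changed by -1.81 and -1.83. miR-208b-3p, from the beta myosin gene Myh7, was listed at only 1.17 to 2.99 normalised CPM in the 7 libraries. Its log2 fold change was -0.12, and it did not pass (edgeR's adjusted p = 0.858). miR-1b-5p moved with miR-1a-3p, from 17226, 17653 and 12112 to 4859, 3862, 2954 and 3221 (log2 fold change -2.07, edgeR's adjusted p = 1.79e-08). Its counts were 10.6% to 13.2% of those of miR-1a-3p in each library, so they may not be separate measurements. No sequence of either is given here, nor is the strand setting of the alignment known. Whether miR-1b-5p and miR-1a-3p share reads was not tested.

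Endothelial miR-126 was lower as well. Its hairpin lies in an intron of Egfl7, a gene expressed in endothelium, at chr2:26591357-26591429 on the + strand of GRCm38. miR-126a-3p stood at 70510, 109986 and 120227 normalised CPM at D0 and at 24367, 20601, 24850 and 18833 at D28. D0 replicate 1 was the lowest of its group and still lay well above every D28 library. The D0 level was 4.52-fold the D28 level (log2 fold change -2.18, SE 0.22, adjusted p = 4.37e-08 in edgeR's quasi-likelihood test). The other arm, miR-126a-5p, was at 1832, 2231 and 2125 and then at 759, 488, 689 and 692, and fell by 1.65 on the log2 scale (edgeR's adjusted p = 1.07e-06). Both members of the endothelial list thus fell. miR-126b-5p had the largest fall among miRNAs of at least 100 CPM, from 314, 467 and 409 to 93.4, 74.5, 93.9 and 78.3 (log2 fold change -2.22, SE 0.23, edgeR's adjusted p = 6.17e-08). The hairpin of miR-126b lies on the opposite strand of the same place, and the reverse complement of miR-126b-5p shares a run of 19 bases with miR-126a-3p. Its counts were 0.34% to 0.446% of those of miR-126a-3p in every library, and those of miR-126a-5p were 99.89% to 99.97% of those of miR-126b-3p. The strand setting of the alignment is not given in the sources used here, so the members of these pairs cannot be told apart.

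Within the list of fibroblast and mural miRNAs the arms of miR-143 and miR-145a fell and those of miR-199 and miR-214 rose. All 13 were tested, of which 5 rose and 4 fell, against 9.45% and 11% of all miRNAs tested, with a median of -0.01. miR-143-3p, known from smooth muscle cells and pericytes, was at 26287, 40859 and 35417 normalised CPM at D0 and at 8858, 8644, 8618 and 6824 at D28. Its log2 fold change was -2.05 (SE 0.21, adjusted p = 4.37e-08 in edgeR's quasi-likelihood test), and the groups did not overlap. miR-145a-5p, its neighbour in the genome, went from 1406, 1478 and 1813 to 509, 455, 356 and 362 (log2 fold change -1.90, SE 0.25, edgeR's adjusted p = 1.48e-06). The 3p arm of miR-145a and the 5p arm of miR-143 fell by 1.47 and 1.53 on the same scale. miR-10a-5p, miR-10b-5p and both arms of miR-140 made up the rest of the list and did not pass, at log2 fold changes of -0.44 to 0.35.

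Of 5 miRNAs known from red blood cells, 2 fell and none rose, against 11% and 9.45% of all miRNAs tested. They were miR-486a-5p and miR-486b-5p, which were listed with identical counts and so are 1 measurement. They stood at 1297, 1763 and 1801 normalised CPM at D0 and at 499, 649, 336 and 274 at D28 (log2 fold change -1.88, SE 0.24, edgeR's adjusted p = 1.41e-06). miR-486 is also made in striated muscle. miR-451a, the erythroid miRNA whose maturation needs no Dicer, was at 162, 162 and 66.7 and then at 36.9, 120, 47.3 and 61.0. D0 replicate 4 lay within the D28 range, and the change of -0.98 did not pass (edgeR's adjusted p = 0.108). The median of the list was -0.98. miR-149-5p, from an intron of Gpc1 (chr1:92850378-92850443, + strand), was on none of the lists and went from 675, 720 and 655 to 232, 201, 182 and 146, a log2 fold change of -1.84 (SE 0.20, edgeR's adjusted p = 1.29e-07) with a narrow spread on either day.

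**Figure D2:**
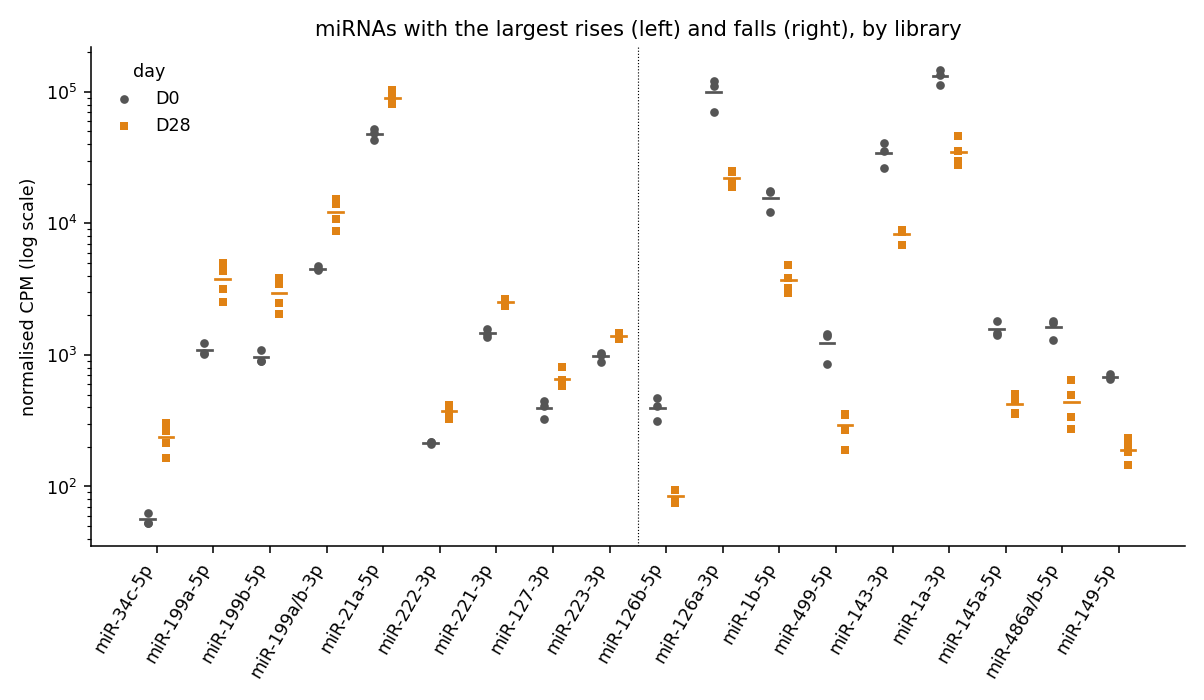
Normalised CPM (log axis) of the miRNAs with the largest rises (left) and falls (right) for means of 100 CPM and above. Each grey circle is a D0 library, each orange square a D28 library and each bar a group mean, and miRNAs with identical counts share a place. Lack of overlap in CPM between the days was a condition for being shown, so the separation seen here is not a result.

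The miR-199 and miR-214 arms, which are known from mesenchymal cells, rose in all 5 measured cases, against 9.45% of all miRNAs tested. miR-199a-5p was at 1024, 1036 and 1230 normalised CPM at D0 and at 4966, 2526, 3170 and 4365 at D28. Replicates 1 and 4 were the highest at D28, and the lowest D28 library lay above all D0 libraries. The mean rise was 3.43-fold (log2 fold change 1.78, SE 0.22, adjusted p = 9.34e-07 in edgeR's quasi-likelihood test). miR-199a-3p and miR-199b-3p had identical counts and rose 2.69-fold from 4731, 4461 and 4418 to 15330, 8813, 10796 and 13953 (log2 fold change 1.43, SE 0.20, edgeR's adjusted p = 3.02e-06). miR-199b-5p gave 891, 892 and 1087 and then 3819, 2042, 2459 and 3431 (log2 fold change 1.62, edgeR's adjusted p = 2.68e-06). Its counts were 86.0% to 88.4% of those of miR-199a-5p at D0 and 76.9% to 80.8% at D28. Its sequence had no entry, so miR-199b-5p and miR-199a-5p may not be separate measurements. The hairpins of miR-199a-2 and miR-214 lie together in Dnm3os, a long noncoding RNA on the strand opposite to Dnm3, with Mir199a-2 at chr1:162217814-162217923. Both arms of miR-214 were among them, miR-214-3p from 31.5, 37.5 and 42.5 to 142, 83.4, 94.5 and 120 (log2 fold change 1.56) and miR-214-5p by 1.45. All 4 tested miRNAs that this pair of hairpins encodes thus rose, and in each of them replicate 2 was the lowest D28 library. Both arms of miR-199a are also encoded by Mir199a-1 on chromosome 9, so their counts cannot be assigned to the Dnm3os locus.

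The levels of these miRNAs in the other cell types were set beside the changes in HCs. The miR-199 and miR-214 arms held 0.51% of the mature counts of HCs at D0 and 1.84% at D28, against 6.64% and 7.81% in FBs. Their share in HCs was thus 7.68% of that in FBs at D0 and 23.6% at D28. The cardiomyocyte list held 10.3% ± 1.56 (SD, n = 3) of HC counts at D0 and 3.45% ± 0.753 (n = 4) at D28, with libraries from 8.63% to 11.7% and from 2.64% to 4.30%. This compares with 66.0% and 54.0% in CMs, 10.6% and 4.95% in ECs, and 0.324% and 0.157% in FBs. The endothelial list held 7.81% ± 1.88 of HC counts at D0 and 2.21% ± 0.199 at D28 (5.67% to 9.18% and 1.94% to 2.40%), against 19.8% and 15% in ECs. On both days the muscle markers miR-1a-3p, miR-133a-3p and miR-499-5p, the endothelial miR-126a-3p and the mesenchymal miR-199a-3p were well above 0 in every HC library, whereas miR-208b-3p was near 0. What part RNA of other cell types had in these results was not tested. In RNA pooled from many cells, fewer cells of a type and less RNA per cell cannot be told apart. An exact permutation test over libraries, two-sided over 35 arrangements, cannot go below p = 0.0571 with 3 against 4 libraries. It gave that smallest value, adjusted p = 0.114 over 8 quantities, for the cardiomyocyte, endothelial and erythroid shares, with every D28 library below every D0 library. The erythroid share counted the identical miR-486a-5p and miR-486b-5p under both names. In D0 replicate 1 each was listed at 26868 counts and miR-451a at 3355, so most of that share was miR-486. Taken alone, miR-451a overlapped between the days. The fibroblast and mural list was at 4.80% and 4.29% (exact p = 0.229).

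**Figure D3:**
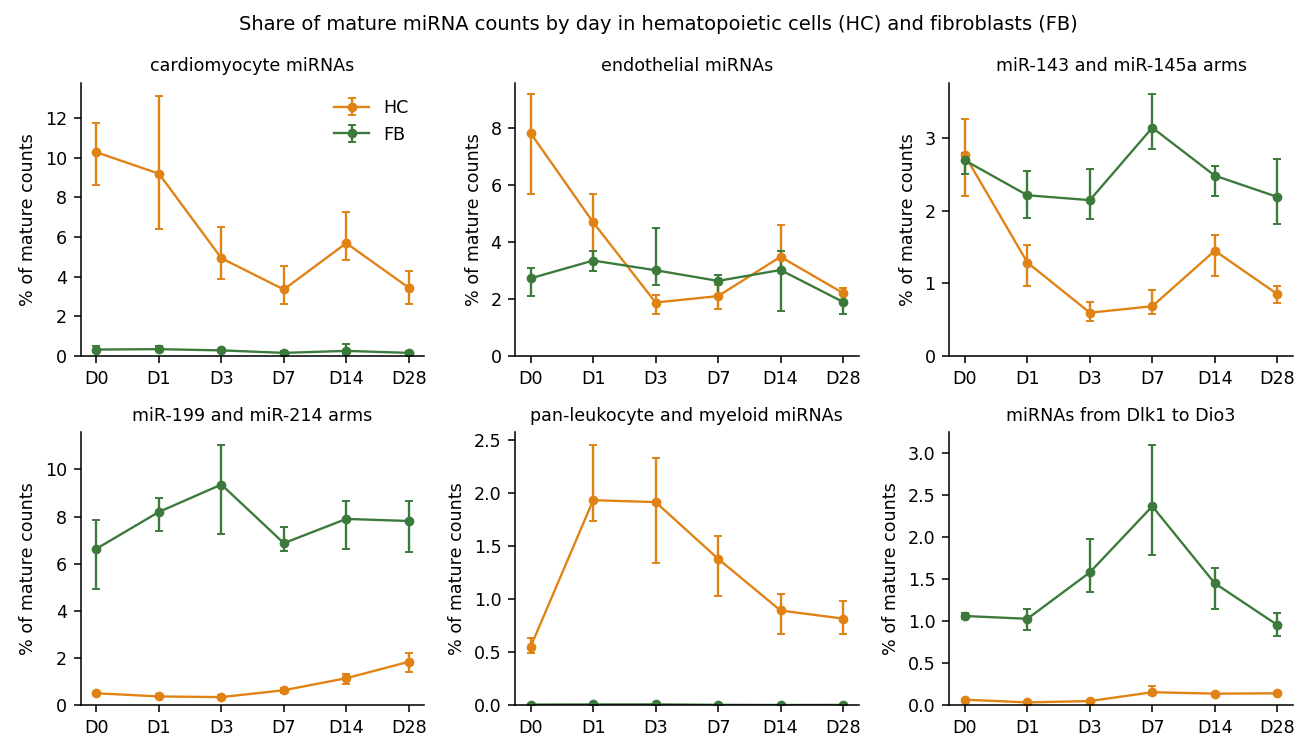
Mean share of mature miRNA counts (%) held by 6 groups of miRNAs on each day in HCs (orange) and FBs (green), with vertical lines from the lowest to the highest library. In HCs the cardiomyocyte list went from 10.3% at D0 to 3.45% at D28 and the miR-199 and miR-214 arms from 0.51% to 1.84%, while the pan-leukocyte list peaked at 1.93% on D1.

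A second group of rises came from 1 stretch of chromosome 12. The imprinted region between Dlk1 and Dio3 (chr12:109452823-110281097, GRCm38) holds large miRNA clusters, which are expressed from the maternal chromosome. It was chosen after the values were seen. Of its 100 mature miRNAs, from 54 hairpins, 47 were tested. Among these 24 rose and none fell, against 9.45% and 11% of all miRNAs tested, and 44 of the 47 had a positive log2 fold change. The median was 0.87, against 0.05 over all miRNAs tested. The 24 make up 40% of all 60 rises. Without D0 replicate 1, 13 of the 47 passed, and with library size alone 37 did. Most of these miRNAs were scarce, since 34 of the 47 had a mean under 10 CPM. Summed over the region, the level was 717, 905 and 983 normalised CPM at D0 and 1744, 1311, 1302 and 1524 at D28, so that every D28 library was above every D0 library and replicate 1 was the highest at D28 and the lowest at D0.

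The most abundant member, miR-127-3p, whose hairpin lies opposite the coding exon of Rtl1 at chr12:109592846-109592915, was at 323, 411 and 448 at D0 and at 802, 585, 584 and 647 at D28. The rise was 0.73 (SE 0.22, adjusted p = 0.0191 in edgeR's quasi-likelihood test). The call was lost without D0 replicate 1 (0.61, adjusted p = 0.0997), without D28 replicate 1 (0.62, adjusted p = 0.0691) and with miRNAs of other cell types left out of the scaling (0.63, adjusted p = 0.0601). miR-541-5p was at 48.6, 55.7 and 71.3 and then at 138, 123, 102 and 116 (log2 fold change 1.03, edgeR's adjusted p = 0.00232). miR-382-5p went from 9.27, 10.5 and 11.5 to 30.7, 25.4, 28.3 and 30.1, a change of 1.46 with a tight spread on both days. miR-410-3p had the larger log2 fold change of 2.08 at a low level, with at most 1.5 normalised CPM at D0 and 3.97 to 6.36 at D28. By cluster, 15 of 33 tested miRNAs rose in the large cluster from miR-379 onward (24 hairpins). In the cluster of miR-127, miR-433 and miR-136 (7 hairpins) 7 of 10 rose, against 9.45% of all miRNAs tested.

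The same region was followed on the other days against the same D0 libraries. None of the 47 was higher and 29 were lower at D1, when 51.7% of all miRNAs differed from D0. At an unadjusted p under 0.05 the D1 counts were 1 and 30. At D3, 5 were higher and 18 lower, at D7 29 were higher and none lower, and at D14 24 were higher and none lower, against 58.7%, 46% and 27.6% of all miRNAs in either direction. These comparisons share the D0 libraries, and none of the 47 passed between D28 and D14 in edgeR's test, against 4.88% of all miRNAs (1 higher and 2 lower at an unadjusted p under 0.05). In FBs 62 miRNAs of the region were tested between D28 and D0 and none passed in edgeR's test, against 7.79% of all miRNAs, with 2 higher and 1 lower at an unadjusted p under 0.05 and a median log2 fold change of 0.03. The difference between HCs and FBs passed for 23 of the 62, all more positive in HCs, against 16.7% of all miRNAs in either direction. The summed level in FBs was 10614 CPM at D0 and 9558 at D28 without TMM scaling, and that in HCs was 664 and 1425. HCs thus stood at 6.25% of the FB level at D0 and at 14.9% at D28. In ECs it was 721 and 2339 CPM, and in CMs 62.8 and 125.

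The miR-34b and miR-34c hairpins, targets of the tumour suppressor p53 on chromosome 9, rose on both arms, and miR-34c-5p had the largest rise of the miRNAs with a mean of 100 CPM or more. miR-34c-5p was at 52.4, 53 and 63.1 normalised CPM at D0 and at 306, 165, 216 and 263 at D28. The rise was 4.23-fold (log2 fold change 2.08, SE 0.21, adjusted p = 4.13e-08 in edgeR's quasi-likelihood test) and no library overlapped. miR-34b-5p (hairpin at chr9:51103562-51103645, - strand, opposite an intron of Btg4) went from 18.2, 19.4 and 15.1 to 120, 61.9, 86.1 and 95.5 (log2 fold change 2.37, SE 0.26, edgeR's adjusted p = 1.46e-07). The 3p arms were scarce but also passed, miR-34b-3p at 1.69 (edgeR's adjusted p = 0.000334) and miR-34c-3p at 1.48 (0.0461). The last call was lost without D0 replicate 1 (adjusted p = 0.153), D0 replicate 4 (0.127), D28 replicate 1 (0.112) or D28 replicate 4 (0.0972). It was also lost with no filter (0.0838), with a replicate block (0.0628), and with miRNAs of other cell types left out of the scaling (0.0698). miR-34a-5p, which is made from its own locus on chromosome 4 and has the seed GGCAGUG in common with miR-34b-5p, had a log2 fold change of 0.38 and did not pass (edgeR's adjusted p = 0.301). Of 3 tested miRNAs with this seed and a sequence entry, miR-34a-5p, miR-34b-5p and miR-449a-5p, 1 rose, with a median log2 fold change of 1.54. miR-34c-5p had no sequence entry and is not in this count. miR-210-3p, induced by hypoxia, did not pass either (0.50, adjusted p = 0.136). Of 7 miRNAs on the list of hypoxia and p53 miRNAs, 4 rose and none fell, against 9.45% and 11% of all miRNAs tested. All 4 came from miR-34b and miR-34c. With library size alone 6 of the 7 passed as higher, miR-34a-5p (0.72, adjusted p = 0.039) and miR-210-3p (0.84, adjusted p = 0.0139) among them. In FBs miR-34c-5p was at 644 CPM at D0 and 1090 at D28 without TMM scaling, so that HCs stood at 6.67% and 21.0% of the FB level.

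miR-21a, induced in macrophages and in fibroblasts after injury, was the most abundant miRNA that rose. miR-21a-5p was at 42659, 48817 and 52189 normalised CPM at D0 and at 88963, 80647, 88474 and 103261 at D28, a 1.89-fold rise (log2 fold change 0.92, SE 0.17, adjusted p = 0.000195 in edgeR's quasi-likelihood test). The lowest D28 library was well above the highest D0 library. The scarce miR-21a-3p moved the same way, from 4.78, 6.12 and 6.59 to 12.6, 16.4, 13.9 and 11.5 (log2 fold change 1.22, edgeR's adjusted p = 0.00375). The hairpin (chr11:86584067-86584158, - strand) lies in an exon of Vmp1. Its mean level was higher on the days between, at 138588 on D7 and 113402 on D14, than at D28.

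The X-linked pair miR-221 and miR-222, known to restrain the cell cycle inhibitor p27, rose together. miR-221-3p was at 1586, 1359 and 1450 at D0 and at 2682, 2446, 2598 and 2339 at D28 (log2 fold change 0.78, SE 0.14, adjusted p = 0.000112 in edgeR's quasi-likelihood test). miR-222-3p was at 218, 217 and 212 and then at 415, 367, 395 and 323 (log2 fold change 0.80, SE 0.14, adjusted p = 8e-05). The 5p arms, at 0.36 and 0.51, did not pass. The list had 2 rises of 4 tested, against 9.45% of all miRNAs tested. With library size alone all 4 passed as higher, but so did 29.3% of all miRNAs. With only 4 members, no conclusion about the list is drawn from these counts.

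Of 4 pan-leukocyte and myeloid miRNAs 1 rose and none fell, with a median log2 fold change of 0.29, and 2 rose with library size alone. With so few members the count cannot be set against the 9.45% of all miRNAs that rose. miR-223-3p, which restrains the granulocyte response of myeloid cells, was at 1037, 884 and 1003 normalised CPM at D0 and at 1381, 1316, 1475 and 1389 at D28, 1.43-fold higher (log2 fold change 0.51, SE 0.17, adjusted p = 0.0285 in edgeR's quasi-likelihood test). The groups did not overlap, but the call was lost without D0 replicate 1 (adjusted p = 0.0522), D0 replicate 2 (0.134), D0 replicate 4 (0.066), D28 replicate 3 (0.0644) or D28 replicate 4 (0.0526), with no filter (0.153), and with miRNAs of other cell types left out of the scaling (0.0841). miR-142a-3p stood at 5310, 4049 and 4563 and then at 4112, 4954, 4613 and 6430, and the days overlapped (0.12, adjusted p = 0.776). The 4 miRNAs together held 0.635%, 0.493% and 0.531% of mature counts at D0 and 0.675%, 0.838%, 0.769% and 0.982% at D28. Every D28 share was above every D0 share (exact p = 0.0571, the smallest these libraries allow). In FBs, ECs and CMs at D0 and D28 the mean share of the same miRNAs was 0.00687% or less, well below that in HCs. The lymphocyte list did not set HCs apart from ECs, with mean shares of 0.330% in HCs and 0.270% in ECs at D0 and of 0.276% and 0.261% at D28, against 0.0215% or less in FBs and CMs.

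The lymphocyte list held no call among 4 tested in edgeR's test or with DESeq2 and 1 fall at an unadjusted p under 0.05, with a median of -0.09. With library size alone miR-342-3p passed as higher (log2 fold change 0.68, edgeR's adjusted p = 0.0169). miR-150-5p was at 5136, 2934 and 3230 at D0 and at 2068, 1707, 2258 and 2685 at D28. Every D28 library was below every D0 library, yet the log2 fold change of -0.79 did not pass (edgeR's adjusted p = 0.115). miR-155-5p, which activated lymphocytes and macrophages induce, was at 405, 133 and 163 and then at 123, 118, 123 and 161. D0 replicate 1 alone was high, and the change of -0.83 did not pass (edgeR's adjusted p = 0.059). miR-146a-5p, a brake on NF-kB signalling, was at 46530, 37362 and 41971 and then at 45644, 48703, 47137 and 41592, with overlapping days (0.13, adjusted p = 0.646). Of 13 inflammation-induced miRNAs, 3 rose and 2 fell, against 9.45% and 11% of all miRNAs tested, with a median of 0.18. The rises were both arms of miR-21a and the scarce miR-147-3p, which went from 2.80, 1.42 and 1.72 to 4.37, 7.90, 7.65 and 7.13 (log2 fold change 1.78, edgeR's adjusted p = 8.25e-05). The falls were miR-9-5p and miR-187-3p, at -0.57 and -0.81. With library size alone the list had 6 rises and no fall.

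Families that many cell types share are given by their counts, to be read against the 9.45% of all miRNAs that rose and the 11% that fell. Of 11 miR-30 family members 7 fell and none rose, with a median of -0.85. miR-30e-5p was at 21462, 20398 and 20118 normalised CPM at D0 and at 9625, 10259, 9782 and 10100 at D28 (log2 fold change -1.06, SE 0.15, adjusted p = 6.11e-06 in edgeR's quasi-likelihood test). miR-30a-5p stood at 47326, 49365 and 50794 and then at 26571, 27453, 26608 and 25775, and it fell by 0.89. miR-30c-5p fell by 0.99 and miR-30d-5p by 0.85, whereas miR-30b-5p was at 1309 to 1633 at D0 and at 1334 to 1603 at D28 (0.04, adjusted p = 0.923). The 3 miRNAs with the seed GUAAACA and a sequence entry, miR-30a-5p, miR-30c-5p and miR-30e-5p, all fell. miR-30b-5p and miR-30d-5p were not among these 3, so this count does not describe the whole family. In the X-linked cluster of miR-322, miR-503, miR-351 and miR-542, 5 of 10 tested fell and none rose, with a median of -0.56. They included miR-322-3p (-0.95, edgeR's adjusted p = 0.00017) and miR-503-5p (-0.60, 0.00463), and with library size alone 2 of the 10 passed.

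The let-7 family, whose members were among the most abundant miRNAs on both days, had no call among 10 tested in edgeR's test, even at an unadjusted p under 0.05, and none with DESeq2 (median 0.10). With library size alone 9 of the 10 passed as higher. The lists of miR-15/16 (6 tested, median 0.25), miR-29 (7, 0.35) and the miR-23, miR-27 and miR-24 clusters (9, -0.09) had no call either, in edgeR's test or with DESeq2. At an unadjusted p under 0.05 they had 3 rises, 1 rise and 1 fall, and with library size alone 3, 3 and 1 rises. The miR-17-92 clusters and their paralogs had 1 rise among 20 tested and a median of 0.38, with 10 rises under library size alone. That rise was miR-18b-5p, at 0.569 to 1.11 normalised CPM at D0 and 1.54 to 9.60 at D28. The cluster of miR-99b, let-7e and miR-125a with its paralogs had 1 rise among 12 tested, miR-125b-1-3p at 1.17 (edgeR's adjusted p = 0.000387), and a median of -0.09. This cluster had 3 falls at an unadjusted p under 0.05 and 4 rises with library size alone. Its share of rises was near that of all miRNAs. Of 9 miR-181 family members 1 fell, miR-181a-2-3p at -0.75, with a median of 0.14, which is near the share of all miRNAs that fell, and none passed with library size alone. The liver and gut list, kept as a set of miRNAs foreign to the heart, had 2 falls of 10 tested, miR-141-3p (-0.68) and miR-215-5p (-0.95), and a median of -0.26. Neither passed with library size alone.

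**Figure D4:**
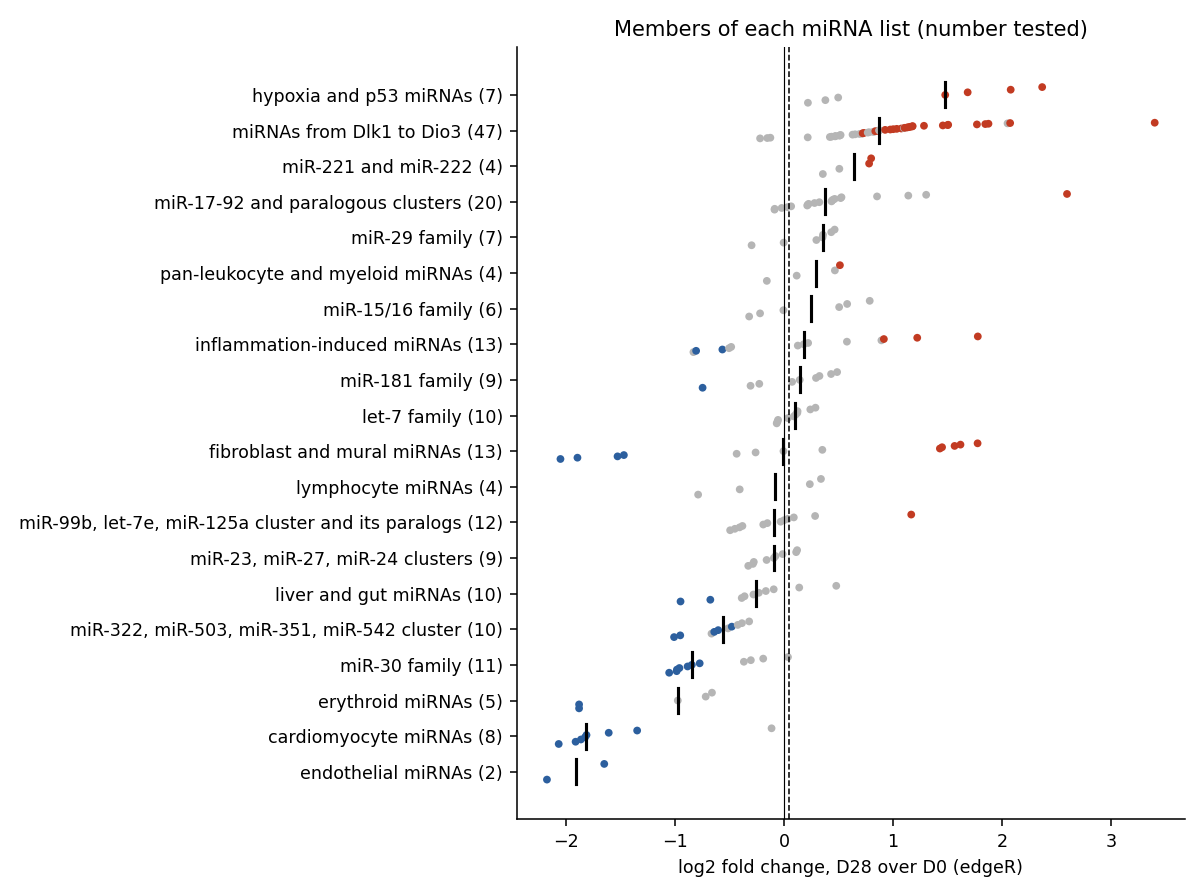
Log2 fold change of D28 over D0 for each tested member of the 19 lists and of the Dlk1 to Dio3 region, which was chosen after its values were seen. Red points rose, blue points fell, grey points did not pass, black bars are list medians and the dashed line is the median of all 635 miRNAs (0.05). The cardiomyocyte and endothelial medians lie at -1.82 and -1.91 and that of the hypoxia and p53 list at 1.48.

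D28 was then compared with D14, the sampling day before it. This test gave 31 of 635 miRNAs (4.88%), of which 14 rose and 17 fell, or 12 and 25 with library size alone. Most of the count rested on single libraries, since it was 3 without D14 replicate 3, 5 without D28 replicate 4, 10 without D14 replicate 2, 14 without D28 replicate 1, 15 without D28 replicate 3, and 20 without D14 replicate 4 or D28 replicate 2. miR-125b-5p, at 4996 ± 1222 normalised CPM at D14 and 9261 ± 1294 at D28 (SD, n = 4), rose by 0.89 (SE 0.18, adjusted p = 0.00921 in edgeR's quasi-likelihood test). miR-199a-3p and miR-199b-3p rose from 7092 ± 1290 to 12223 ± 2961 (0.79, adjusted p = 0.0159). Without D14 replicate 3, 0 miRNAs rose and 3 fell, so neither miR-125b-5p nor the miR-199 3p arms passed there. Without D14 replicate 2, D28 replicate 1 or D28 replicate 4, 2 miRNAs rose each time, and 8, 12 and 3 fell. miR-145a-5p fell by 0.87 (adjusted p = 0.0369), miR-1b-5p by 0.76 (0.0162) and miR-143-3p by 0.71 (0.0398) on the log2 scale.

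The course over all 6 days was read from the group means. miR-34c-5p had mean levels of 56.1, 56.7, 84.4, 141, 170 and 237 normalised CPM from D0 to D28, with the highest at D28. miR-199a-5p was at 1097 at D0, dipped to 566 and 598 at D1 and D3, and reached 1193, 2347 and 3757 at D7, D14 and D28. miR-126a-3p was at 100241 at D0, at 16250 on D3 and at 33632 on D14, so that its D28 level of 22163 was between those. miR-223-3p was at 975 at D0, 3216 on D1 and 1390 at D28. Its D28 level was therefore nearer to that of D0 than to that of D1, whereas those of miR-34c-5p and miR-199a-5p were the farthest from D0.

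The change in HCs was set against the change in FBs of the same days, with 7 HC and 8 FB libraries in 1 fit and a test of the difference. The paper left out a D0 FB small RNA replicate as an outlier, and its text does not say which. All 4 D0 FB libraries were used here. The cell types of a day came from the same mice, per the study's methods, and the fit treats the 15 libraries as independent. This gave 105 of 629 miRNAs (16.7%), of which 59 were more positive in HCs and 46 more negative, or 128 and 27 with library size alone. Without FB D0 replicate 2, 146 passed. In FBs alone 49 (7.79%) differed between D28 and D0. miR-143-3p changed by -1.93 in HCs and had a log2 fold change of -0.17 in FBs (difference -1.76, SE 0.21, adjusted p = 4.21e-05 in edgeR's quasi-likelihood test). miR-126a-3p was at -2.06 in HCs and -0.39 in FBs (difference -1.67, adjusted p = 0.000171). miR-149-5p was at -1.72 in HCs and at 0.25 in FBs (difference -1.96, adjusted p = 0.000171). miR-126b-5p differed by -1.59 (adjusted p = 0.000599). miR-155-5p had the largest difference of these 5, at -0.71 in HCs and 1.88 in FBs (difference -2.60, SE 0.44, adjusted p = 0.000757). It rose in FBs from a mean of 6.43 to 23.3 CPM and did not pass in HCs.

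Among the rises, the change was larger in HCs for miR-199a-5p (difference 1.50, edgeR's adjusted p = 0.00355), whose log2 fold change in FBs of 0.39 did not pass. The same held for miR-34c-5p (difference 1.30, adjusted p = 0.0148), which rose in FBs as well, by 0.89. miR-127-3p differed by 0.99 (adjusted p = 0.0047) and was at -0.14 in FBs. For miR-21a-5p the difference of -0.40 did not pass (edgeR's adjusted p = 0.402), and it rose in FBs by 1.43. For miR-1a-3p, at -1.78 in HCs and -0.90 in FBs, the difference of -0.88 did not pass (adjusted p = 0.0931). miR-30a-5p, miR-30c-5p, miR-30d-5p and miR-30e-5p had log2 fold changes of -0.18 to 0.25 in FBs that did not pass, and their differences of -0.92, -0.69, -0.85 and -1.18 all passed.

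**Figure D5:**
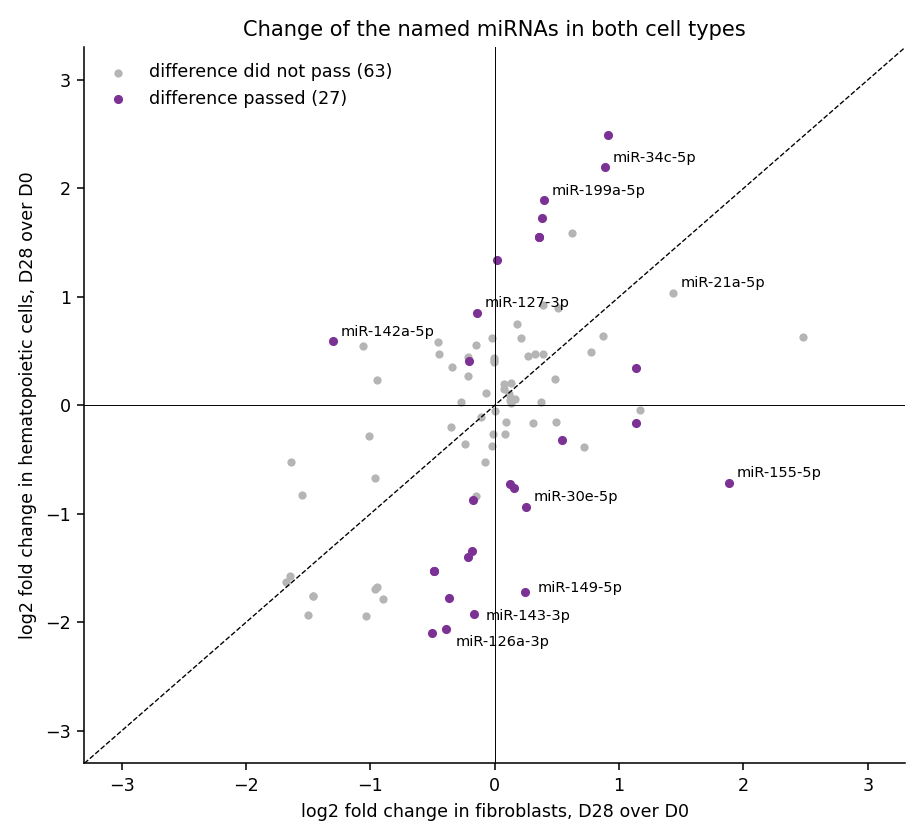
Log2 fold change of D28 over D0 in HCs (vertical axis) against that in FBs (horizontal axis) for the 90 named miRNAs tested, from 1 fit over both cell types. Purple points (27) are miRNAs whose difference between the cell types passed, grey points (63) are those whose difference did not, and the dashed line marks equal change. miR-143-3p and miR-126a-3p lie far below the line, and miR-199a-5p and miR-34c-5p above it.

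The balance between the arms of a hairpin was tested last, on a log2 scale of 5p over 3p counts. In limma 12 of 163 hairpins (7.36%) passed, of which 10 had a lower ratio at D28. Members of the miR-467 and miR-669 families, a repetitive rodent cluster in an intron of Sfmbt2, made up 6 of them. How many of the 163 belong to these families is not given here, so the 6 cannot be set against the 7.36%. miR-669a-5p has the same counts as miR-669p-5p, and miR-669a-3p as miR-669o-3p, so members are not all separate measurements. miR-467c was at 3.45, 2.85 and 2.63 at D0 and at 2.05, 1.34, 1.88 and 1.83 at D28, a change of -1.20 (SE 0.22, adjusted p = 0.00324 in limma). miR-467b went from a mean log2 ratio of 2.00 to 0.79 (limma's adjusted p = 0.00381) and miR-330 from 1.52 to 0.68 (0.0194). miR-669a, which shares counts with other members of its family, went from 1.18 to 0.45, and miR-29c, almost all of whose counts came from the 3p arm, from -8.70 to -9.34. The count of calls was 4 without D0 replicate 1, 5 without D28 replicate 3, 6 without D0 replicate 4 and 7 without D28 replicate 1.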

How the data were processed

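Small RNA libraries (NEBNext kit) of HCs at D0 and D28 were analysed. Per the labels and the study's methods, the authors trimmed reads with Trim Galore, dropped short ones, aligned the rest with Bowtie2 to miRBase within the nf-core small RNA pipeline (genome mm10) and summarised them with SAMtools. The deposited values used here are raw counts per mature miRNA. The line of unmatched reads, 34.3% to 43.9% of each total, was kept out. How reads with several matches were counted is not given in the sources used here, and 132 miRNAs, in 40 sets, had counts identical to another. Precision is limited by the number of pools, and by counts for scarce miRNAs.

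D28 was compared with D0 in a fit of 23 HC libraries with a term per day, so that all days shared 1 estimate of the spread, with edgeR 4.0.16 (filterByExpr, TMM, quasi-likelihood test, Benjamini-Hochberg adjustment, threshold 0.05) in R 4.3.3. HCs and FBs were compared by an interaction term. Arm ratios were tested with limma 3.58.1 (pseudocount 0.5, arms with 10 or more counts on average). Shares were compared with an exact permutation test. The scripts were tested on simulated data. Python 3.11.15, numpy 2.4.6 and pandas 2.3.3 handled tables. Sequences came from RefSeq (515 of 635 tested miRNAs matched) and loci from GENCODE, both on GRCm38.

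Named miRNAs were the 10 largest rises and 10 largest falls with an adjusted p below the threshold, 100 CPM or more on average and no overlap, the most abundant 3 of each day, the up to 4 most abundant members of each of 19 lists, the up to 5 largest changes of arm ratio with at least 50 counts, the up to 3 rises and 3 falls against D14, the 5 smallest p-values against FBs, and other arms of the first group. Other names were chosen after their values were seen. The comparison and the lists were chosen with earlier results of these data known. Alternatives were another scaling, DESeq2 1.42.0, no filter, a replicate block, single libraries left out and identical miRNAs counted once.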

Additional observations from a re-analysis of the deposited data

Results flagged for a closer look

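In 5 measurements 1 of the 4 D28 libraries stood apart from the others, judged by its gap to the nearest library over the range of the group. Replicate 4 was low for miR-143-3p (0.895 of the range, at 6824 normalised CPM) and high for miR-155-5p (0.853, at 161) and for the share of the single most abundant miRNA (0.890). Replicate 1 was high for miR-125b-5p (0.889) and miR-145a-3p (0.931). Chance gives such a gap in about 1 of 20 groups, and 98 measurements were screened (90 named miRNAs and 8 shares or counts), so the 5 found are about as many as chance gives.

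The change from D0 to D28 differed between HCs and FBs for 27 of the 90 named miRNAs in edgeR's test of the difference, against 16.7% of all miRNAs. The named miRNAs were chosen in part by this test and by the size of their change in HCs, so their count is not evidence about them as a set. The values are given as the log2 change in HCs minus that in FBs. It was more positive in HCs for miR-142a-5p (1.89), miR-34b-5p (1.58), miR-199a-5p (1.50), miR-199b-5p (1.35), miR-21a-3p (1.33), miR-34c-5p (1.30), miR-199a-3p and miR-199b-3p (1.19), miR-127-3p (0.99) and miR-125b-5p (0.61). For miR-142a-5p the change in the HC fit did not pass (0.47, edgeR's adjusted p = 0.202). The pan-leukocyte list it belongs to held a far smaller share of counts in FBs than in HCs. It was more negative for miR-155-5p (-2.60), miR-149-5p (-1.96), miR-143-3p (-1.76), miR-126a-3p (-1.67), miR-126b-5p (-1.59), miR-145a-5p (-1.41), miR-200a-3p (-1.30), miR-143-5p (-1.19), miR-30e-5p (-1.18), miR-145a-3p (-1.16), miR-126a-5p and miR-126b-3p (-1.04), miR-30a-5p (-0.92), miR-10b-5p (-0.87), miR-30d-5p (-0.85), miR-146b-5p (-0.79) and miR-30c-5p (-0.69).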

How the results depend on the processing

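Of the 130 calls at D28, 127 passed with DESeq2, 114 with library size alone, 114 with no filter, 126 with D0 replicate 3 kept, 125 with identical miRNAs counted once, 128 in a fit of the D0 and D28 libraries only, 114 with miRNAs of other cell types left out of the scaling, and 102 to 118 without single libraries. Rises numbered 186 with library size alone and 92 in the D0 and D28 fit, which gave 106 falls, and 43 to 57 rises and 62 to 68 falls without single libraries. The miR-34c-3p, miR-127-3p, miR-223-3p, miR-351-5p and miR-450a-5p calls were lost in at least 1 setting, and 33 of 38 named calls held in all. With library size alone let-7a-5p, let-7f-5p and miR-23a-3p reversed to 0.27, 0.28 and 0.33, with no call in the main test. The causes were not tested.

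D28 against D14 gave 54 calls with DESeq2, 54 with no filter and 3 to 23 without single libraries. HCs against FBs gave 155 with library size alone and 90 to 146 without single libraries. Arm ratios gave 7 with at least 50 counts per arm, 2 with D0 replicate 3 kept and 4 to 10 without single libraries. The Dlk1 to Dio3 count, added after seeing the data, was 13 to 37.

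In percentage points, D28 minus D0 without single libraries was -7.66 to -6.11 for cardiomyocyte, -6.67 to -4.91 for endothelial, -0.878 to -0.296 for fibroblast and mural, -0.186 to -0.153 for erythroid, 0.208 to 0.310 for pan-leukocyte and -0.0912 to 0.00505 for lymphocyte miRNAs (positive without D0 replicate 1), and -2.05 to -0.831 for the top miRNA. The number of miRNAs detected differed by -32.5 to -1.5, by 169 with D0 replicate 3 kept and by 16.8 at equal depth. With that replicate the cardiomyocyte, endothelial, erythroid and pan-leukocyte differences were -7.60, -5.02, -0.241 and 0.254, each at the smallest exact p of 0.0286.

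Replicate numbers do not pair mice across days, and deviations of same-numbered D0 and D28 libraries correlated at -0.187, -0.0915 and -0.103. With the replicate block there were 58 rises and 70 falls, 26 calls against D14, 88 between HCs and FBs and 10 arm ratios. Same-numbered HC and FB libraries of a day correlated at -0.0397 to 0.103. With the replicate block within each day, chosen after seeing the data because the cell types shared mice, 76 passed between HCs and FBs, 73 of them among the 105. Of the 27 named miRNAs, 24 held, and miR-10b-5p (adjusted p = 0.0556), miR-125b-5p (0.0508) and miR-21a-3p (0.115) did not.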

Other observations

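Some falls lay outside the rule for named miRNAs and were chosen after their values were seen. miR-378a-3p, encoded in the metabolic coactivator gene Ppargc1b and abundant in muscle, was at 8473, 8517 and 7827 normalised CPM at D0 and at 2636, 3671, 2074 and 2207 at D28 (log2 fold change -1.64, SE 0.16, adjusted p = 1.88e-08 in edgeR's quasi-likelihood test). miR-378c followed at -1.67, and its similar sequence means that the counts may be split between the family members. miR-204-5p and miR-211-5p, which share the seed UCCCUUU, changed by -1.70 and -1.80, from 134 to 164 and 107 to 129 at D0 to 35.7 to 52.8 and 26.9 to 36.8 at D28. miR-490-3p, known from smooth muscle and heart, went from 30.6, 50.8 and 57.9 to 11.3, 7.71, 8.43 and 6.98, and miR-504-5p from 35.7, 45.7 and 44.2 to 10.4, 9.18, 6.65 and 6.41. Both fell by more than the spread on either day, at log2 fold changes of -2.43 and -2.36.

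Among scarce rises, miR-31-5p was at 5.69, 7.25 and 7.13 normalised CPM at D0 and at 26.0, 10.9, 17.7 and 19.3 at D28 (log2 fold change 1.46, edgeR's adjusted p = 0.000373). Its change was more positive in FBs, with a difference of HCs minus FBs of -3.70 (SE 0.55, edgeR's adjusted p = 0.000236). All D28 libraries were above all D0 libraries, and replicate 2 was again the lowest at D28, as for miR-34b-5p, miR-34c-5p and the miR-199 arms.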
